A study of Mus musculus with 8 samples.

Results

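Genes of lipid synthesis and fat storage were followed through 8 mouse tumors, as 3 sets taken apart: 13 genes of sterol synthesis and its control, 9 genes of fatty acid synthesis and its control, and 18 genes of fat cells. These 40 genes are a list of symbols, chosen by function, and all were found among the 49671 Ensembl gene identifiers of the count table. All 8 samples are tumors of 1 genotype, HprtCre with loxP sites in Ewsr1 and in Atf1, in which Cre recombination can join the RNA-binding protein gene Ewsr1 to the transcription factor gene Atf1. They were frozen when the primary tumor made the animal moribund, and no drug was given. The labels hold no control tissue and give the tumors the names 1, 2L, 2R, 3, 4a, 4b, 5 and 6 without saying what a number or suffix stands for, nor which samples come from separate animals, so p-values measure only the spread between these libraries, which may be technical. Neither the cell of origin nor the site of a tumor is given. In bulk tumor RNA, fewer cells of a type and less RNA per cell cannot be told apart.

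Cells build cholesterol from acetyl-CoA through the mevalonate pathway, and fatty acids through acetyl-CoA carboxylase and fatty acid synthase. Both routes are switched on by SREBP factors, which are held in the endoplasmic reticulum by INSIG proteins when sterols are plentiful and released when sterols are scarce. SREBP binds next to the CCAAT-binding factor NF-Y at many of its target promoters. Fat cells add a storage program under PPARG and C/EBPA, with lipid droplet coats, fatty acid carriers and secreted hormones, and brown fat cells add the mitochondrial uncoupling protein UCP1.

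The promoter letters of the synthesis genes are shown first, since SREBP and NF-Y act there. RefSeq's promoter table (GRCm38.p6) held 30 of the 40 genes: 10 of 13 sterol genes, 6 of 9 fatty acid genes and 14 of 18 fat cell genes, some with several start sites. The 250 bases before each start were searched on both strands for CCAAT and for TCACNCCAC, a form of the sterol regulatory element. CCAAT, or ATTGG as its reverse complement, stood in at least 1 window of 10 of 10 sterol genes, of 2 of 6 fatty acid genes and of 5 of 14 fat cell genes, against 37.5% of 27025 genes in the table. By window this was 10 of 12, 3 of 8 and 6 of 18, against 33.8% of 32851 windows. Dhcr7 matched only in a window inside the gene, where all 250 bases are annotated exon. The matches of Cyp51 and Idi1 also lay in annotated exon. TCACNCCAC was in 1 member, Hmgcs1, and in 1.22% of all genes in the table. A match is a description of letters and not evidence of binding. The stretches follow, 5′ to 3′ on the gene's strand, with the matches in capitals and none reaches an annotated exon. Hmgcs1 is shown because it holds matches to CCAAT and TCACNCCAC, and Mvk because it holds 5 CCAAT matches, of which 4 fall in the stretch. Lss is shown because its level set 1 tumor apart, and Fasn as the fatty acid gene with most matches.
Hmgcs1 (chr13:119690101-119690320, + strand): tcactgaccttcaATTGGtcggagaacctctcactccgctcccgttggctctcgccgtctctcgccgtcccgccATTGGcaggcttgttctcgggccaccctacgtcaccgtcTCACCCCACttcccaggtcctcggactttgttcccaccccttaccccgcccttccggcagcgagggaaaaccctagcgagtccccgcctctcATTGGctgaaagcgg
Mvk (chr5:114444069-114444238, + strand): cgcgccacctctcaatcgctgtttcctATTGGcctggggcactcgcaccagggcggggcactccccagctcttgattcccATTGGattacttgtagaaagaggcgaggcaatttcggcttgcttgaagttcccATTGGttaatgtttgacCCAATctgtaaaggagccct
Lss (chr10:76531475-76531574, + strand): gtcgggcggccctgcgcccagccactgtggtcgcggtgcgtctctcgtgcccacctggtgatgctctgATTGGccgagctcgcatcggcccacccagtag
Fasn (chr11:120824578-120824677, - strand): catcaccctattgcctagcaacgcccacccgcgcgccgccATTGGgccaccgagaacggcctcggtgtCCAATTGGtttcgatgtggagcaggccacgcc

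The libraries held 4817902 to 19682149 counts. Levels are in CPM, counts scaled to a common library size, with TMM scaling, and levels of different genes are compared only per kilobase of exon. A gene was tested where every library reached 0.920 CPM before scaling, about 10 counts at the median depth, which 31 of the 40 members did (11 sterol, 9 fatty acid and 11 fat cell genes) among 11505 genes. Library 3 stood apart: mitochondrial genes, a few abundant noncoding RNAs and the protein-coding gene Lars2 held 75.5% of its counts, against 4.67% to 40.5% in the other 7. Its TMM factor was 0.394 against 0.830 to 1.36, and 1 count in it is worth 0.533 CPM. Without TMM scaling the median gene of library 3 fell by 1.33 on the log2 scale while that of 2L rose by 0.45, and library 3 became the lowest for 9 of 11 sterol, 9 of 9 fatty acid and 9 of 11 fat cell genes tested. The lowest library named for a gene therefore holds for TMM scaling unless stated otherwise, while a change of the highest library is given beside the gene.

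The 3 sets sat at different heights. Fatty acid synthesis genes were abundant, with a median of 15.0 CPM per kb at the 81.7th percentile of the 11505 genes. Sterol genes (median of the tested members 4.72 CPM per kb, 43.3th percentile) and fat cell genes (5.18 CPM per kb, 46.96th percentile) lay near the middle of all genes, whose median was 5.57 CPM per kb. Spread between tumors also differed: the median SD of log2 CPM over the 8 libraries was 0.63 for sterol, 0.61 for fatty acid and 0.94 for fat cell genes, against 0.51 for all genes tested. These are descriptions, and no test was made of a set against other genes.

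**Figure D1:**
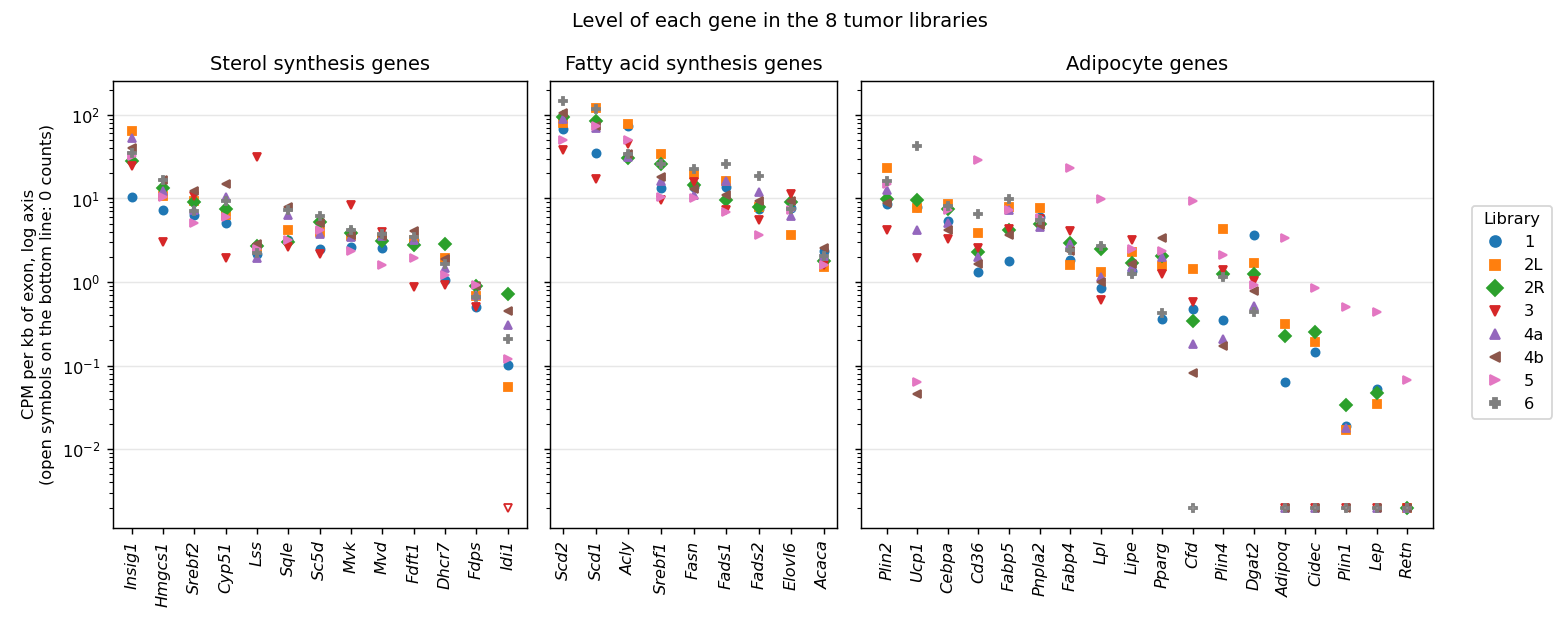
Level of each of the 40 genes in CPM per kb of exon (log axis), 1 symbol per library, ordered within each set by mean level; open symbols on the bottom line are libraries with 0 counts. Scd2, Scd1 and Acly were the highest of the 40 by mean, Lss in library 3 lay far above its other 7 values, and Ucp1 spread most widely.

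In sterol synthesis, Insig1 stood above all enzymes of the pathway by mean level. This gene, which encodes the sterol-dependent anchor of SREBP, was the highest of the set at 35.9 CPM per kb. From high to low its levels were 198 CPM (2L), 164 (4a), 125 (4b), 108 (6), 100.4 (5), 86.1 (2R), 75.6 (3) and 32.1 (1). Tumor 1 was the lowest and 2L and 4a the highest, with a 6.18-fold range. Without TMM scaling library 3 was the lowest. Srebf2, the SREBP of sterol genes, varied little, with 36.1 CPM in tumor 5 as the lowest, 51.7 in 4a and 51.3 in 6, and 89.2 in 4b as the highest (60.2 ± 17.5 CPM, SD, n = 8).

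The enzyme genes Hmgcs1, Sqle, Cyp51 and Fdft1 were highest in 4b by TMM scaling. Hmgcs1, HMG-CoA synthase at the entry of the mevalonate pathway, stood at 76.3 CPM (4b), 75.8 (6), 61.3 (2R), 56.5 (4a), 49.3 (2L), 48.3 (5), 33.2 (1) and 13.8 (3). Tumors 4b and 6 were almost level, and tumor 6 was the higher under the other 3 scalings tried. Sqle, squalene epoxidase, stood at 43.4 CPM in 4b, 40.3 in 6, 35.4 in 4a and 14.4 to 23.6 in the other 5, and without TMM scaling tumor 6 was its highest. Cyp51, the sterol demethylase, followed with 65.0 CPM in 4b, 45.9 in 4a, 40.6 in 6, 8.52 in 3 and 22.6 to 33.0 in the others. Fdft1, squalene synthase, ranged from 3.73 CPM in 3 to 17.4 in 4b. Its annotated exons share 774 bases with Ctsb, a cathepsin gene on the opposite strand with 148287 counts over the 8 libraries against 1582 for Fdft1, and strand handling of the counts is not given, so its level is uncertain. The span of Cyp51 also overlaps a gene on the opposite strand, Akap9, with 17950 counts, which leaves the level of Cyp51 uncertain too.

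Lss, lanosterol synthase, which closes the ring system after Sqle, departed from its neighbors in library 3. This gene (ENSMUSG00000033105, mm10 chromosome 10, 76531588 to 76557138) stood at 339.8 CPM (3), 30.7 (4b), 29.1 (2R), 27.5 (2L), 26.7 (5), 24.1 (6), 23.4 (1) and 21.04 (4a). The 7 tumors below it lay close together, and library 3 lay 11.1-fold above the next highest, 4b (exact 95% interval 9.77 to 12.6, counting error only). That library held 638 counts of Lss, more than the 406 of the larger library 4b, and was highest under all 4 scalings. In the same library Hmgcs1, Sqle, Cyp51, Fdft1, Dhcr7 and Sc5d had their lowest levels of the 8 tumors under each of the 4 scalings. Per kilobase, the ratio of Lss to Sqle was 12.1 in library 3 and 0.305 to 0.899 in the other 7, which does not depend on scaling. The antisense gene that overlaps Lss, 4930483K19Rik, had 0 counts in all 8 libraries.

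The remaining sterol genes were lower. Mvk, mevalonate kinase, stood at 22.4 CPM in 3 and 6.32 to 11.3 CPM elsewhere, but without TMM scaling tumor 6 was the highest. Mvd, which makes isopentenyl diphosphate, ranged from 2.95 CPM in 5 to 7.46 in 3, and Dhcr7, which makes the last step to cholesterol, from 5.33 in 3 to 16.7 in 2R. Both had another highest library without TMM scaling, 6 and 2L. Sc5d, the lathosterol desaturase, ranged from 10.7 CPM in 3 to 29.8 in 6. Fdps and Idi1, which make and condense the isoprenoid units, did not pass the filter: Fdps held 4 to 73 counts per library, at 3.03 ± 0.710 CPM (SD, n = 8), and Idi1 held 0 to 26 counts and at most 2.49 CPM, in 2R. Idi1 has 3 other annotated genes with at least 95% identity over at least 200 bases, of which Gm13502 matches it fully over 684 bases, so its low count is uncertain.

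Among the 11 tested sterol genes, 5 were highest in 4b, as were 8.9% of all genes, 3 were highest in 3, as were 29.6%, and 6 were lowest in 3, as were 31.2%. The number highest in 4b was 4 with relative log expression factors and 3 without scaling, when 5 were highest in 6 and 9 lowest in 3. For differences between the 6 numbers in the titles, the quasi-likelihood test of edgeR called no gene of the set after Benjamini-Hochberg adjustment over all genes (0 of 11, against 0% of 11505 genes; smallest adjusted p = 0.0974, for Lss), and 5 of 11 had an unadjusted p under 0.05, against 24.5% of all genes. That test takes its spread from 2L against 2R and 4a against 4b only. The DESeq2 likelihood ratio test called 3 of the 11 (Lss, Hmgcs1 and Cyp51), against 20.7% of all genes. Without library 2L, or without 2R, edgeR called 5 of 11 (Hmgcs1, Sqle, Lss, Cyp51 and Insig1 in both), against 38.7% and 39.3% of all genes. Without library 3 it called 0 of 12, against 0 of 12658 genes. An unadjusted p under 0.05 was then found for 1 of 12, against 1615 of the 12658 genes. In that setting it was found for 2 of 9 fatty acid and 6 of 11 fat cell genes. With no scaling factor it called 8 of 11, against 33% of all genes, and with no filter beyond 1 count 5 of 13, against 20.6%.

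Of 23 further genes of sterol synthesis, uptake and export, all passed the filter, 0 were called by edgeR, 4 had an unadjusted p under 0.05 (24.5% of all genes) and DESeq2 called 4 (20.7% of all genes). Abca1, the cholesterol exporter, was the highest of them at 57.2 CPM per kb, with 1935 CPM in tumor 6 and 236 to 546 CPM in the other 7. Abcg1, another sterol exporter, ranged from 13.8 CPM in 3 to 88.7 in 6, Msmo1, a methylsterol oxidase, from 5.33 in 3 to 42.7 in 4b, and the SREBP-cleaving protease gene Mbtps1 from 144 in 5 to 292 in 2R, with 4a the highest without TMM scaling. The summed level of 10 macrophage markers was also highest in 6, at 4133 CPM against 321 to 1915 CPM elsewhere, and lowest in 3, with none of the 10 at 0 in any library. Its part in the levels of Abca1 and Abcg1 was not tested.

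**Figure D2:**
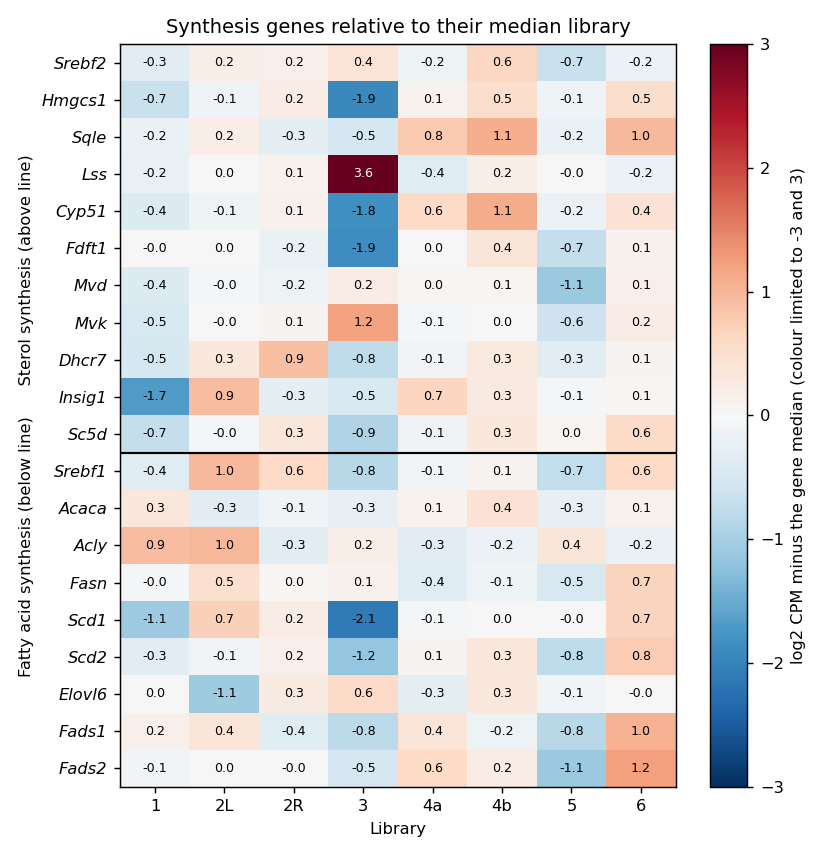
Difference in log2 CPM of each tested synthesis gene from its own median over the 8 libraries (columns), with the values printed and colour limited to -3 and 3. Lss is the one gene of the sterol block far above its median in library 3, where Hmgcs1, Cyp51 and Fdft1 lie below theirs, and the lower block shows Scd1 low in libraries 1 and 3.

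Fatty acid synthesis was led by the desaturases. Scd2 (ENSMUSG00000025203, chromosome 19, 44293674 to 44306864) and Scd1 (ENSMUSG00000037071, chromosome 19, 44394455 to 44407879), which put the first double bond into saturated fatty acids, averaged 84.3 and 73.6 CPM per kb, at the 98.0th and 97.6th percentiles of the genes tested. Scd1 stood at 587 CPM (2L), 569 (6), 416 (2R), 359.5 (4b), 356 (5), 342 (4a), 169.5 (1) and 82.6 (3). Tumors 2L and 6 were highest and 3 and 1 lowest, with a 7.11-fold range. Scd2 stood at 794 CPM (6), 578 (4b), 519 (2R), 493 (4a), 442 (2L), 374 (1), 273 (5) and 209 (3), a 3.80-fold range with 6 above and 3 below the others. The balance of both was not constant: the ratio of Scd1 to Scd2 per kilobase was 1.48 (2L), 1.46 (5), 0.894 (2R), 0.800 (6), 0.774 (4a), 0.695 (4b), 0.506 (1) and 0.442 (3). Thus Scd1 exceeded Scd2 in 2L and 5 and was the lower in the other 6, whatever the scaling. The transcripts share a stretch of 623 bases at 95.5% identity, in which reads could be split between them.

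Precursor supply and chain building followed. Acly, which makes cytosolic acetyl-CoA from citrate, stood at 410.3 CPM (2L), 394 (1), 265 (5), 234 (3), 182 (4b), 179 (6), 166 (4a) and 162 (2R). Tumors 1 and 2L were high together, and 2L exceeded 2R by 1.34 on the log2 scale. Fasn, fatty acid synthase, was steadier at 165 ± 46.7 CPM (SD, n = 8), from 110.05 in 5 to 247 in 6. Acaca, the carboxylase that commits acetyl-CoA to fatty acids, varied least, at 33.0 ± 6.56 CPM with a range of 25.9 to 43.5. Elovl6, which lengthens palmitate, ranged from 23.5 CPM in 2L to 73.0 in 3, and without TMM scaling was highest in 4b and lowest in 3.

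The SREBP gene of this route and the desaturases of polyunsaturated fatty acids differed more. Srebf1 stood at 190.5 CPM (2L), 147 (2R), 147 (6), 103 (4b), 91.4 (4a), 75.9 (1), 58.1 (5) and 54.3 (3). Levels in 2L, 2R and 6 lay above the other 5. Per kilobase, Srebf1 exceeded Srebf2 in 7 of 8 tumors, by up to 3.67 times in 2L, and stood at 0.897 of it in 3. The span of Srebf1 overlaps Rai1 on the opposite strand, with 5083 counts in all and 237 in library 3 against 102 for Srebf1, so its level and this ratio are uncertain. Fads1, the delta-5 desaturase, reached 123 CPM in 6 and 33.4 to 77.8 elsewhere, and Fads2, the delta-6 desaturase, reached 60.6 CPM in 6 and 12.005 to 39.0 elsewhere. Both were lowest in tumor 5 by TMM scaling and in 3 without it.

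Of the 9 fatty acid genes, 4 (Fasn, Scd2, Fads1 and Fads2) were highest in tumor 6, as were 16.3% of all genes, and the same 4 under each of the 4 scalings. No gene of the set was called by edgeR (0 of 9, smallest adjusted p = 0.134, for Fads2), and 3 of 9 had an unadjusted p under 0.05, against 24.5% of all genes. DESeq2 called 4 of 9 (Scd1, Scd2, Srebf1 and Fads2), against 20.7%. Without 2L edgeR called 5 of 9, the same 4 and Fads1, against 38.7% of all genes, and without 2R it called 6, with Acly added, against 39.3%. Of 24 further genes of the route, 22 passed the filter, edgeR called 0, 7 had an unadjusted p under 0.05 (24.5% of all genes), and DESeq2 called 6 (20.7%). In these, 8 of 22 were highest in tumor 6, against 16.3% of all genes, and 11 of 22 lowest in 3, against 31.2%. Elovl5, which lengthens polyunsaturated chains, had the highest level at 72.1 CPM per kb, with 506 CPM in 6 and 105 to 396 elsewhere. Acsl4, which activates arachidonic acid, ranged from 28.8 CPM in 3 to 191 in 6, and Agpat2, an enzyme of phospholipid and triglyceride synthesis, from 8.77 CPM in 4b to 56.2 in 6. The elongation reductases Hsd17b12 and Tecr averaged 27.6 and 25.6 CPM per kb, and Hacd2, the dehydratase of that cycle, was highest in 3 at 33.6 CPM and 4.53 to 17.9 CPM elsewhere, but highest in 2R without TMM scaling.

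**Figure D3:**
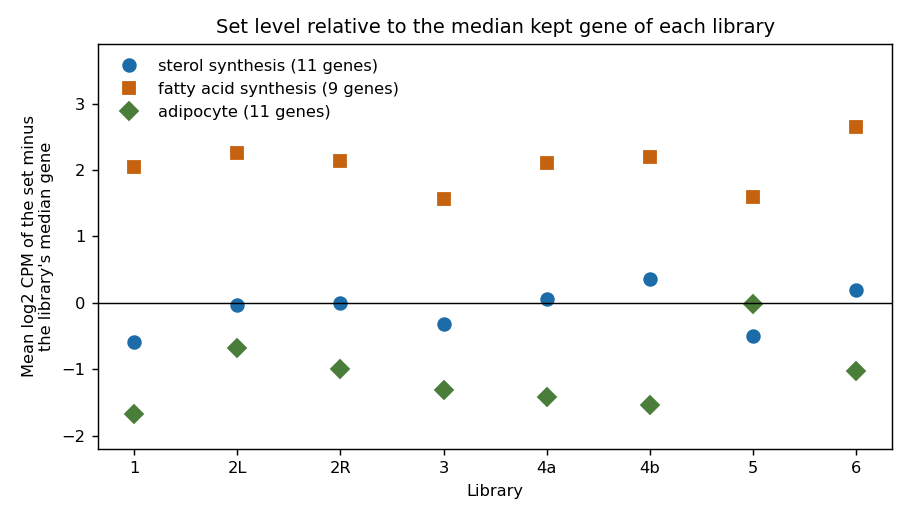
Mean log2 CPM of the tested genes of each set in each library (x axis) minus the median log2 CPM of all tested genes in that library, which removes the scaling between libraries; 0 is the median gene. The fatty acid set lies 1.56 to 2.64 above the median gene, the sterol set between -0.59 and 0.36, and the fat cell set is closest to the median gene in tumor 5.

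Set scores taken relative to the median gene of a library put this together without scaling. The fatty acid score was highest in 6 (2.64 log2 units above the median gene) and lowest in 3 and 5 (1.56 and 1.60). The sterol score was highest in 4b (0.36) and lowest in 1 and 5 (-0.59 and -0.50), and the value of library 3 (-0.32) includes the high Lss. The fat cell score was -0.02 in tumor 5, -0.68 in 2L and -1.67 to -0.999 in the other 6. The order depended on the use of a mean, as medians of TMM-scaled log2 CPM showed, from which the median gene was not subtracted. By these medians the fatty acid set was highest in 2L (7.57, against 7.20 in 6) and lowest in 5 (5.86). The sterol set was then lowest in 3 (3.81, against 4.17 in 1). Tumor 5 was highest for the fat cell set by either measure.

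Apart from Ucp1, fat cell genes fell into those present in all tumors and those near 0 outside tumor 5. The list of 7 fat cell markers summed to 33.4 CPM in tumor 5, with all 7 detected, and to 7.44 to 19.2 CPM in the other 7, where the lipase gene Lipe, which was detected in every tumor, made up most of the sum. Lipe was set aside after its values were seen, and the other 6, Adipoq, Lep, Plin1, Cidec, Cfd and Retn, summed to 18.6 CPM in tumor 5 (177 counts, all 6 detected) and to 0 to 2.31 CPM (0 to 59 counts) in the other 7. Adipoq, the gene of the hormone adiponectin, held 44 counts in tumor 5 (4.63 CPM), 11 in 2L (0.431 CPM), 2 in 2R, 1 in tumor 1 and 0 in 3, 4a, 4b and 6. Cfd, the secreted protease adipsin, reached 8.53 CPM in 5, 1.33 in 2L and at most 0.533 elsewhere. Plin1, the droplet coat of mature fat cells, reached 2.32 CPM in 5 and at most 0.156 elsewhere. Lep, the hormone leptin, and Cidec, which fuses droplets, reached 1.47 and 1.58 CPM in 5 and at most 0.178 and 0.467 CPM elsewhere, and Retn, resistin, had 1 count in all, in tumor 5. In tumor 6 all 6 were at 0, where 3 counts would be 0.122 CPM each. None of these 6 passed the filter, so no test was made. Without Lipe, the markers were thus at or near 0 in 7 tumors and reached a few CPM in tumor 5.

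Of the carrier and lipase genes of the set, Fabp4, Cd36 and Lpl were highest in tumor 5, while Fabp5, Lipe and Pnpla2 were not. Fabp4 (ENSMUSG00000062515, chromosome 3, 10204088 to 10208576), the fatty acid binding protein of fat cells, also made by endothelial cells and macrophages, stood at 105 CPM (5), 18.1 (3), 13.1 (2R), 12.6 (4a), 10.9 (6), 10.7 (4b), 8.26 (1) and 7.17 (2L). Cd36 (ENSMUSG00000002944, chromosome 5, 17781690 to 17888801), a fatty acid translocase of the same cell types and of muscle, stood at 104 CPM (5), 23.2 (6), 13.8 (2L), 9.06 (3), 8.25 (2R), 7.12 (4a), 5.89 (4b) and 4.79 (1). Lpl, lipoprotein lipase, stood at 103 CPM (5), 28.2 (6), 26.3 (2R), 13.99 (2L), 12.05 (4a), 10.4 (4b), 8.79 (1) and 6.39 (3). For all 3 genes tumor 5 lay above the other 7 under all 4 scalings. With TMM scaling it was 5.80-fold, 4.48-fold and 3.67-fold over the next highest. The same tumor was not extreme in 10 endothelial markers, which summed to 514 CPM there and to 406 to 1590 CPM elsewhere. Kdr made up most of that sum in 2R and 6. Its levels there were 1187 and 1075 CPM without TMM scaling, a scale on which they cannot be set against the TMM-scaled sum. By TMM scaling 8 of the 10 were lowest in 6, and none was highest or lowest in tumor 5. Nor was tumor 5 extreme in 10 macrophage markers (1356 CPM against 321 to 4133), with none of either list at 0 in any library. Its sum of 10 keratinocyte and sebaceous gland markers was 819 CPM, exceeded only by 2L at 990 CPM and against 113 to 363 in the other 6. In tumor 5 the desmosome genes Dsp and Dsg3 stood at 349.6 and 280.2 CPM, Soat1 at 95.4, Krt14 at 55.1, Mgst1 at 34.4 and Krt10 at 4.11 CPM, of which Soat1, Krt14 and Krt10 were the highest of the 8 tumors by TMM scaling and Krt10 alone of these without it. Krt5, Krt79 and Awat2 stood at 0.105 CPM each there, and Elovl3 was at 0 in all 8 libraries. Their part in the fat cell result was not tested.

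**Figure D4:**
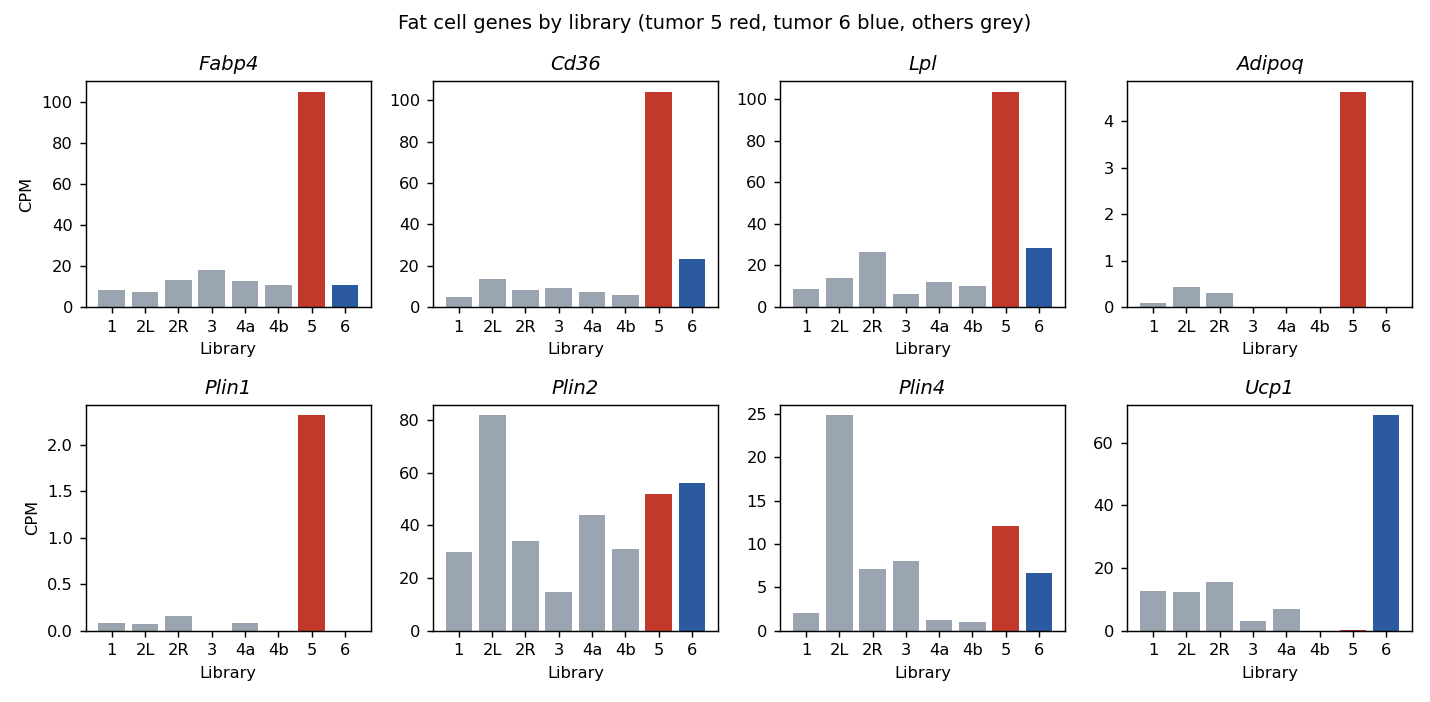
CPM of 8 fat cell genes in each library (bars, linear axes that start at 0 and differ between panels; tumor 5 red, tumor 6 blue). Fabp4, Cd36, Lpl, Adipoq and Plin1 are highest in tumor 5, Plin2 and Plin4 in 2L, and Ucp1 in tumor 6.

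Ucp1 did not follow the other fat cell genes. This gene (ENSMUSG00000031710, chromosome 8, 83290352 to 83298452) encodes the protein by which brown and beige fat cells turn respiration into heat. It stood at 68.7 CPM (6), 15.7 (2R), 12.8 (1), 12.4 (2L), 6.87 (4a), 3.20 (3), 0.105 (5) and 0.0756 (4b). Tumor 6, where Adipoq, Plin1 and Cidec were at 0, held 1691 counts of Ucp1, while tumor 5, where these markers were highest, held 1. Tumors 4a and 4b, which share a number, held 166 counts and 1 count, a ratio of 91.0 after scaling (exact 95% interval 16.1 to 3614, counting error only). Ucp1 did not pass the filter because of 4b and 5 and was not tested. Ppargc1a, the coactivator that drives mitochondrial genes and Ucp1 in brown fat, stood at 50.04 CPM in 6, 70.8 in 3 and 2.19 to 14.4 in the other 6, and without TMM scaling tumor 6 was the highest. Prdm16, a regulator of brown fat identity that falls outside the naming rule and was chosen after its values were seen, was highest in 6 at 6.83 CPM and at 1.26 to 4.67 CPM elsewhere. Cidea, a brown fat gene chosen in the same way and described below, was instead lowest in 6 by TMM scaling and in 2R without it.

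Plin2, Plin4, Fabp5, Pparg, Cebpa, Pnpla2, Lipe and Dgat2 passed the filter in every tumor. Plin2, the droplet coat of most cell types, was the highest of the set by level at 12.3 CPM per kb, with 81.8 CPM in 2L, 56.3 in 6, 52.1 in 5, 44.02 in 4a and 14.9 to 34.3 in the other 4. Plin4, a coat found in fat and muscle, reached 24.8 CPM in 2L, 12.1 in 5 and 0.982 to 7.99 in the other 6. Its span overlaps Hdgfl2 on the opposite strand, with 3371 counts in all. The 10 skeletal muscle markers summed to 21266 CPM in 2L, 6761 in 3 and 15.4 to 122 in the other 6, with Myh2 at 0 in 4b and 5. Their part in the Plin4 level was not tested. Fabp5, a fatty acid binding protein of epidermis and macrophages, ranged from 6.39 CPM in tumor 1 to 35.1 in 6. The ratio of Fabp4 to Fabp5 per kilobase was 3.21 in 5, 1.03 in 1, 0.932 in 3 and 0.202 to 0.688 in the other 5.

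Pparg, the master regulator of fat cells, was low at 4.94 ± 2.95 CPM (SD, n = 8), from 1.07 in 1 and 1.26 in 6 to 9.90 in 4b, and was not highest in tumor 5 (6.95 CPM). Cebpa, its partner, ranged from 8.52 CPM in 3 to 22.5 in 2L. Pnpla2, the first lipase of stored fat, was the steadiest member at 17.0 ± 2.90 CPM, and Lipe, the next lipase, ranged from 7.44 in 6 to 18.6 in 3, but was highest in 2L without TMM scaling. Dgat2, which completes triglycerides, stood at 11.3 CPM in tumor 1 and 1.34 to 5.17 CPM elsewhere.

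Of the 11 tested fat cell genes, 4 were highest in 2L, as were 12.7% of all genes, and 3 in 5, as were 8.23%. By edgeR 0 of 11 were called (smallest adjusted p = 0.0974, for Cd36 and Fabp4), and 6 had an unadjusted p under 0.05, against 24.5% of all genes. DESeq2 called 6 of 11 (Cd36, Lpl, Pparg, Plin4, Fabp4 and Dgat2), against 20.7%. Without 2L or without 2R edgeR called 8 of 11, the same 6 with Plin2 and Fabp5, against 38.7% and 39.3%. Of 23 further genes of fat cells 11 passed the filter, edgeR called 0, 6 had an unadjusted p under 0.05 (24.5% of all genes), and DESeq2 called 6 (20.7%). By level, Cebpb and Cebpd, early factors of fat cell formation, and the adiponectin receptor gene Adipor1 led these, at 29.7, 11.1 and 27.7 CPM per kb. Acvr1c, an activin receptor of fat cells, was the most variable, with 164 CPM in 2R, 3.20 in 3 and 7.16 in 5. Gpd1, which makes glycerol phosphate for triglycerides, stood at 30.1 CPM in 2L, 22.6 in 1 and 1.504 to 5.92 in the other 6.

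Libraries with a shared number were compared gene by gene, with 1 library on each side and no test. Between 2L and 2R, 5 of the 31 tested members differed at least 2-fold, as did 17.4% of all genes: Plin4, Acly, Plin2 and Insig1 were higher in 2L, by 1.77, 1.34, 1.25 and 1.2 on the log2 scale, and Elovl6 was lower there (-1.32). At least 2-fold, 9.03% of all genes were higher in 2L and 8.33% in 2R. Between 4a and 4b, 0 of the 31 differed 2-fold, as did 4.45% of all genes. With TMM scaling all 11 sterol genes but Insig1 were lower in 4a than in 4b, with a median log2 ratio of -0.37, against -0.01 for all genes. The 23 further sterol pathway genes had a median of -0.07. Without TMM scaling the median gene rose by 0.41 in 4a and by 0.26 in 4b. The direction of the smallest differences, such as that of Mvd (-0.02), therefore depends on the scaling. Between 2L and 2R the median of the 11 sterol genes was -0.08.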

How the data were processed

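RNA of 8 tumors was sequenced as total RNA after ribosomal RNA depletion, per the labels. The authors deposited raw counts, whole numbers per Ensembl gene. The submitters' processing notes name mm10 as the build, and RSEM, featureCounts, cutadapt and STAR 2.7.5a as tools, in an order and with strand handling not given in the sources used here. GENCODE M21 (mm10) named 49412 of 49671 identifiers and gave exon lengths as the union of exons. edgeR 4.0.16 in R 4.3.3 filtered genes (filterByExpr, 1 group), scaled with TMM and tested the 6 title numbers with the quasi-likelihood F-test (2 residual degrees of freedom, Benjamini-Hochberg threshold 0.05). Log2 CPM used a prior count of 2. DESeq2 1.42.0 was an alternative, beside other scalings, filters and left-out libraries. The edgeR and DESeq2 steps were checked on simulated data. BLAST 2.17.0 searched for near-identical transcripts (at least 95% over 200 bases). Sequences are RefSeq's. Members and gene lists were chosen with earlier results of these data known. All 40 members are named, and of each further list of the pathways the 3 tested genes of highest level and the 3 of largest spread. A gene that this rule names is not reported here. Counts cover counting error only through their intervals, since reads without molecular identifiers are not independent molecules.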

Additional observations from a re-analysis of the deposited data

Results flagged for a closer look

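In a check of the log2 levels of the 31 tested members and the 3 set scores, 3 of 34 had a highest or lowest library separated from the other 7 by a share of the whole range above Dixon's 95% limit, which chance passes in about 1 of 20 groups. Lss stood apart in library 3 at 339.8 CPM (gap 0.865 of the range), Fabp4 in library 5 at 105 CPM (0.657) and Mvk in library 3 at 22.4 CPM (0.539). Library 3 is the one with the fewest counts, and there Mvk rested on 42 counts and Lss on 638. Without TMM scaling Mvk was no longer highest in library 3, while Lss and Fabp4 kept their highest library.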

How the results depend on the processing

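Calls among the title numbers depended on which libraries gave the spread within a number. edgeR called 0 genes in all (smallest adjusted p = 0.0902, 2813 with an unadjusted p under 0.05) and 0 of each set, and also 0 with relative log expression factors, with library sizes free of abundant RNAs, with a mean CPM of at least 5 and without robust estimation. Leaving out each library in turn gave 0 to 4548 genes, 0 to 5 sterol, 0 to 6 fatty acid and 0 to 8 fat cell genes, with calls only without 2L (4457 genes) or 2R (4548 genes), which leaves 1 pair to measure the spread. Without a scaling factor edgeR called 3791 of 11505 genes (33%), with 8 of 11 sterol, 5 of 9 fatty acid and 9 of 11 fat cell members. With no filter beyond 1 count it called 6260 of 30321 genes (20.6%), with 5 of 13, 5 of 9 and 13 of 18 members. DESeq2 called 2383 of 11505 genes (20.7%), with 3 of 11, 4 of 9 and 6 of 11 members. The causes were not tested. Levels moved by more than the SD over libraries in 0 of 320 member values with relative log expression factors in 45 without scaling, 30 of them in library 3, in 113 when abundant RNAs were left out of the library sizes and in 25 with a prior count of 0.5. Of the 24 set scores, 9 moved without scaling, 3 of them in library 3, and 24 moved when abundant RNAs were left out of the library sizes, which raised the median gene of every library by 0.58 to 0.62 on the log2 scale, 16 moved with no filter, which adds low members, and 5 when scores were medians. No paired analysis was possible because all samples form 1 group. Depth limits library 3 most, where 3 counts are 1.60 CPM, against 0.118 to 0.467 CPM in the other 7.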

Other observations

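Cidea, a droplet protein of brown fat cells and sebaceous glands, was chosen after its values were seen, since it falls outside the naming rule. It stood at 74.0 CPM in library 3, 52.9 in 2L and 36.9 in 5, and did not exceed 1.24 CPM in the other 5, with 2L the highest without TMM scaling. Its order across tumors was not that of Ucp1, which was highest in 6, where Cidea stood at 0.122 CPM. Dlk1, the marker of fat cell precursors, also outside the rule, was highest in tumor 5 at 29.0 CPM and ranged from 0.453 to 11.1 CPM elsewhere. Angptl4, an inhibitor of lipoprotein lipase chosen in the same way, was highest in tumor 5 as well, at 24.2 CPM against 3.25 to 11.7 CPM. Of the 11 tested further fat cell genes, 1 was highest in tumor 5, against 8.23% of all genes. Slc2a4, of the same list, was lowest in tumor 5 by TMM scaling and in 3 without it.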
